A study of Homo sapiens with 12 samples.

Results

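Transcripts of 82 cytoplasmic ribosomal protein genes were followed in HT1080 fibrosarcoma cells treated with the phorbol ester PMA or with the lectin concanavalin A (ConA). The genes were chosen by symbol: RPL or RPS followed by a number, an optional A, X, Y or L and an optional further number, plus RPLP0, RPLP1, RPLP2 and RPSA, wherever the symbol was listed for both experiments. They are 82 of the 15459 genes listed in both tables, 49 encoding proteins of the large subunit and 33 of the small subunit. Of these, 5 are paralogs, RPL7L1, RPL22L1, RPL26L1, RPS27L and RPS4Y1. No measured value enters the rule, but the family was taken up after its changes against the controls in these libraries had been seen, so its calls are given as a description of the libraries and support nothing by themselves.

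HT1080 is an established human fibrosarcoma line, labelled wild type here. All groups were seeded at 1000000 cells per 10 cm dish in biotin-depleted medium with 10% serum and moved on day 3 to biotin-depleted medium with 1% serum. The treated cells then received 40 nM PMA, an activator of protein kinase C, or 40 µg/mL ConA, which binds mannose-rich glycans at the cell surface, for 24 h. Each treatment has 3 libraries and 3 untreated control libraries of its own, 12 in all, and polyadenylated RNA was sequenced. The labels do not say whether libraries of a group come from separate cultures, so errors and tests measure the spread between these libraries, which may be technical.

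A cytoplasmic ribosome joins a small subunit, which reads the mRNA, to a large subunit, which forms the peptide bonds, and nearly every one of their proteins is present once per particle. Their mRNAs belong to the so-called 5′ TOP class, which begins with a cytosine followed by an unbroken run of pyrimidines. Through this run, and proteins such as LARP1, the mTOR pathway sets how well these mRNAs are translated and how long they are kept.

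The first bases of 9 of the genes are given to show this feature in members that the results turn on: RPLP0, RPS3A and RPS7 with large changes, RPL28 as the least changed with ConA, RPS6 as a known target of the mTOR pathway, and RPL22 with the paralogs RPL22L1, RPL7L1 and RPS27L. Each line holds 10 bases before and 20 bases from the annotated start of transcription, 5′ to 3′ on the strand of the gene, from RefSeq annotation on GRCh38.p14, so the last 20 bases are the beginning of the first exon and its 5′ untranslated part. Capitals mark a tract that starts with C at the first transcribed base and goes on with at least 4 further C or T.
RPLP0, chr12:120201092-120201121, minus strand: ggcgcgaggcCCTTCTCTCgccaggcgtcc
RPS3A, chr4:151099618-151099647, plus strand: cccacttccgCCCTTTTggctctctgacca
RPS6, chr9:19380217-19380246, minus strand: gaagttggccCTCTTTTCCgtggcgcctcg
RPS7, chr2:3575250-3575279, plus strand: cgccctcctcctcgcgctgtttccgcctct
RPL28, chr19:55385922-55385951, plus strand: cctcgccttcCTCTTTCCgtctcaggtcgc
RPL22, chr1:6199576-6199605, minus strand: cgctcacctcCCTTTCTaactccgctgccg
RPL22L1, chr3:170870176-170870205, minus strand: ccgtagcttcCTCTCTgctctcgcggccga
RPL7L1, chr6:42879606-42879635, plus strand: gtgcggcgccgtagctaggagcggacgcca
RPS27L, chr15:63157458-63157487, minus strand: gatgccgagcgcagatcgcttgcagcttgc
Of the 82 genes, 67 had a start in the reference table (RPL23 is among the 15 without an entry). The tract was searched on the strand of the gene only. It was held by 48 of the 67 (71.6%), against 1404 of 27305 symbols (5.14%) over the whole table. RPLP0, RPS3A, RPS6, RPL28, RPL22 and RPL22L1 hold the tract. RPS7, RPL7L1 and RPS27L have no such tract at the annotated base, which says nothing of other starts that cells may use.

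The values are normalized counts per gene, not divided by length. About 33637952 to 45595027 reads were counted on genes per library, so the spread between libraries rather than counting limits the precision for all but the rarest members. Mean levels in the ConA controls ran from 358 normalized counts for RPS28 to 134863 for RPS2, and all 82 genes passed the minimum mean of 10. Ribosomal protein genes have many near-identical processed copies in the genome, and reads shared with these or between paralogs can be split by the counting, which makes single levels uncertain. Mesenchymal markers were all listed (10 of 10), but NT5E was low, with a mean of 6.48 in the ConA controls and 19.3 in the PMA controls. Libraries differed within groups: the third PMA control was low, with a median of -0.155 (log2) from its group mean over the members and only 1 of 82 members above it, while the first ConA library was high (0.143, 81 of 82 above) and the third was low (-0.118, 0 of 82 above). The order of these deviations went partly with annotated transcript length. The Spearman correlation over the 82 genes was 0.383 in the third PMA control and -0.369 in the second. It was -0.34 in the first ConA library and 0.256 in the third, and from -0.179 to 0.201 in the other libraries. The length used is that of the longest annotated principal transcript, which need not be the form counted. Genes of 1 library share its preparation, so this is a description.

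Ribosomal protein transcripts made up a clearly smaller part of the RNA after ConA and a slightly smaller part after PMA. In the ConA controls they took 7.62%, 8.29% and 7.92% of all normalized counts, and with ConA 4.75%, 4.24% and 3.99%. The mean share was 7.94% ± 0.339 (SD, n = 3) in the controls and 4.33% ± 0.383 (SD, n = 3) with ConA, and the groups lay far apart. In the PMA controls the shares were 8.48%, 8.84% and 7.44%, and with PMA 6.74%, 7.17% and 6.95%. The mean was 8.25% ± 0.729 (SD, n = 3) without and 6.95% ± 0.217 (SD, n = 3) with PMA. These groups did not overlap either, but the lowest control, the third, came close to the highest PMA library. The summed normalized counts of the members did overlap, at 2739588 to 3252180 in the PMA controls and 2701345 to 2877412 with PMA. The totals over all genes were higher with PMA (40081123 to 40289797) than in its controls (36791432 to 37139546). As a share is a sum divided by its total, these higher totals enter the lower share with PMA, and they are themselves sums of normalized values. In bulk RNA a change in the cells' content of a transcript and a change in the rest of the RNA both move such a share and cannot be told apart.

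**Figure D1:**
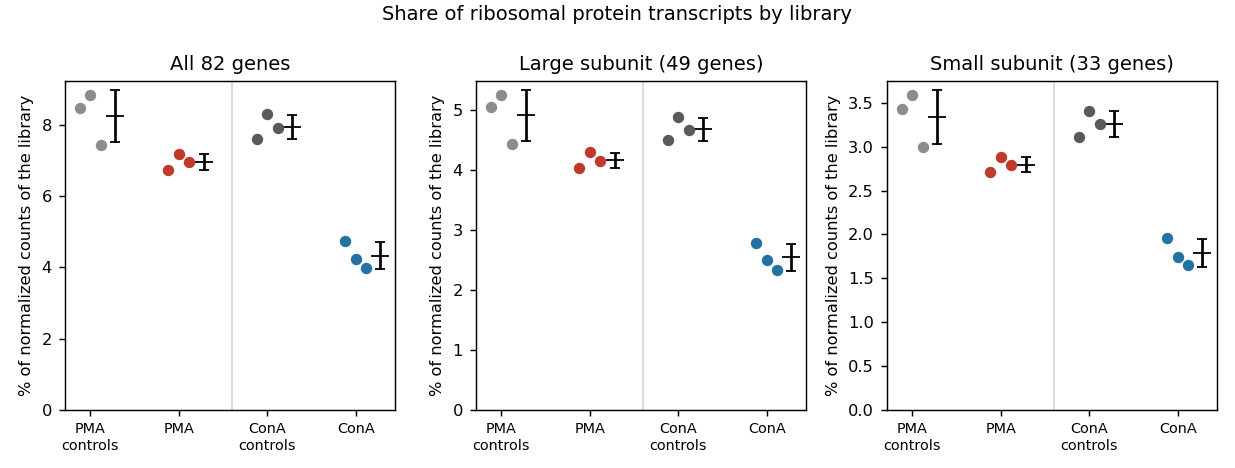
Share of all normalized counts of a library, in percent, taken by the 82 ribosomal protein genes, by the 49 large subunit genes and by the 33 small subunit genes, with 1 point per library and the mean ± SD (n = 3) beside the points. The ConA libraries lie between 3.99% and 4.75% and their controls between 7.62% and 8.29%, while the PMA libraries (6.74% to 7.17%) lie just under their lowest control (7.44%).

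With ConA every member was lower than in the controls. All 82 passed an adjusted p of 0.05 in limma in this direction, and for all 82 the highest ConA library lay under the lowest control. Over all genes tested these criteria were met by 32.5% and 34.4%. A stricter call, a log2 fold change of -1 or below with an adjusted p of at most 0.0001, was met by 25 members, 14 of the large and 11 of the small subunit, and by 2.88% of all genes tested. No member was higher by any of these criteria, which 32.8%, 34.9% and 5.83% of all genes met. Since the contrast was known when the family was chosen, nothing is read from these counts. The median log2 fold change was -0.86 over the members and 0.00 over all 15139 genes, and single members ranged from -1.76 to -0.29. Next to the fold threshold, RPS27A (-0.99), made as a fusion with ubiquitin, was just outside.

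**Figure D2:**
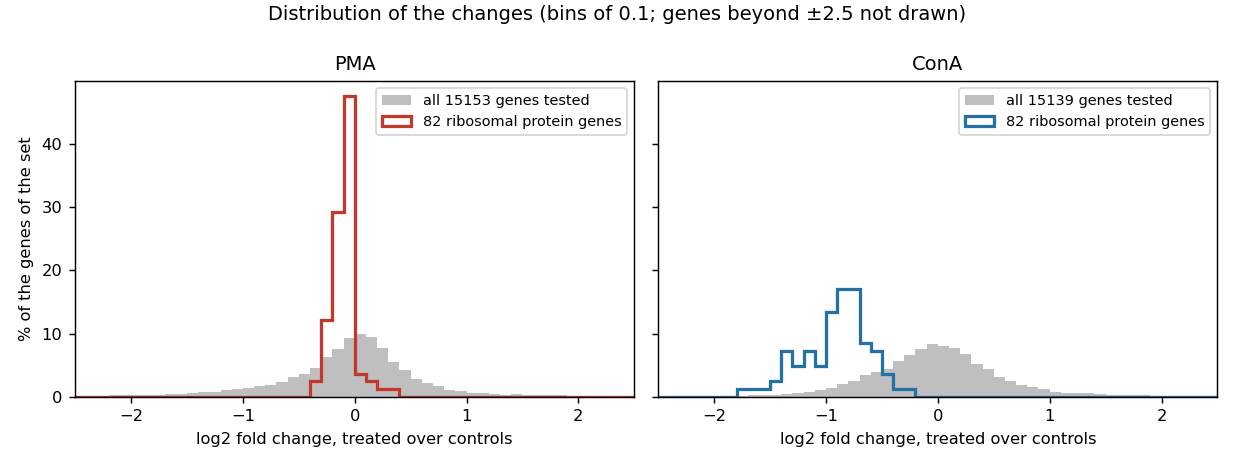
Distribution of the log2 fold change of treated over control libraries, in percent of the genes of each set per bin of 0.1, for all genes tested (grey) and for the 82 ribosomal protein genes (outline), with PMA on the left and ConA on the right. The members sit in a narrow band around their median of -0.08 with PMA, inside the bulk of all genes, and around -0.86 with ConA, on its left side.

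The fall with ConA was uneven within the ribosome. RPL23, a large subunit protein that can also bind the p53 regulator MDM2, was counted 34594, 36980 and 35311 times in the controls and 11430, 10866 and 9443 times with ConA. This is 29.7% of the control mean (log2 fold change -1.76 ± 0.07, SE), the largest fall of the family. RPLP0, the base of the stalk that recruits the translation factors, went from 104264, 118699 and 110048 to 39462, 34885 and 35088 (-1.61 ± 0.07). RPS3A, of the small subunit, went from 42227, 42759 and 40381 to 14948, 14125 and 12967 (-1.58 ± 0.06). In all 3 genes the ConA libraries stood far under every control library. RPL5, which carries the 5S rRNA into the large subunit, followed with -1.48 ± 0.06, then RPL7 (-1.44 ± 0.07) and RPS2 (-1.40 ± 0.09).

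Further members with known roles were among the 25. RPL3, beside the peptidyl transferase centre, changed by -1.26 and RPL4, which lines the exit tunnel, by -1.37. RPS6, the classic substrate of S6 kinase, went from 86233, 91716 and 83707 to 37366, 34424 and 30980 normalized counts (-1.35 ± 0.07). RPSA, also known as a laminin receptor, changed by -1.15 ± 0.06 and RPL13A by -1.11 ± 0.08. RPS7 went from 10640, 11436 and 11063 to 4864, 4458 and 3794 (-1.34 ± 0.07). The set also held RPL6, RPL7A, RPL9, RPL10A, RPL15, RPL17, RPL27A, RPS3, RPS4Y1, RPS15A and RPS20.

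At the other end, RPL28 stood close to its control range. It was counted 50830, 57260 and 57308 times in the controls and 49858, 43061 and 42319 times with ConA, 81.8% of the control mean (-0.29 ± 0.07), so that the first ConA library came close to the lowest control. After quantile normalization its change no longer passed an adjusted p of 0.05. RPL7L1 (-0.30 ± 0.05), RPS27L (-0.42 ± 0.06), RPS19 (-0.45 ± 0.07) and RPL23A (-0.49 ± 0.06) came next. RPS19, the gene most often mutated in Diamond-Blackfan anaemia, kept 73.2% of its control level. The paralogs RPL7L1 and RPS27L are thus 2 of the 3 least lowered symbols, and the median of the 5 paralogs was -0.55.

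**Figure D3:**
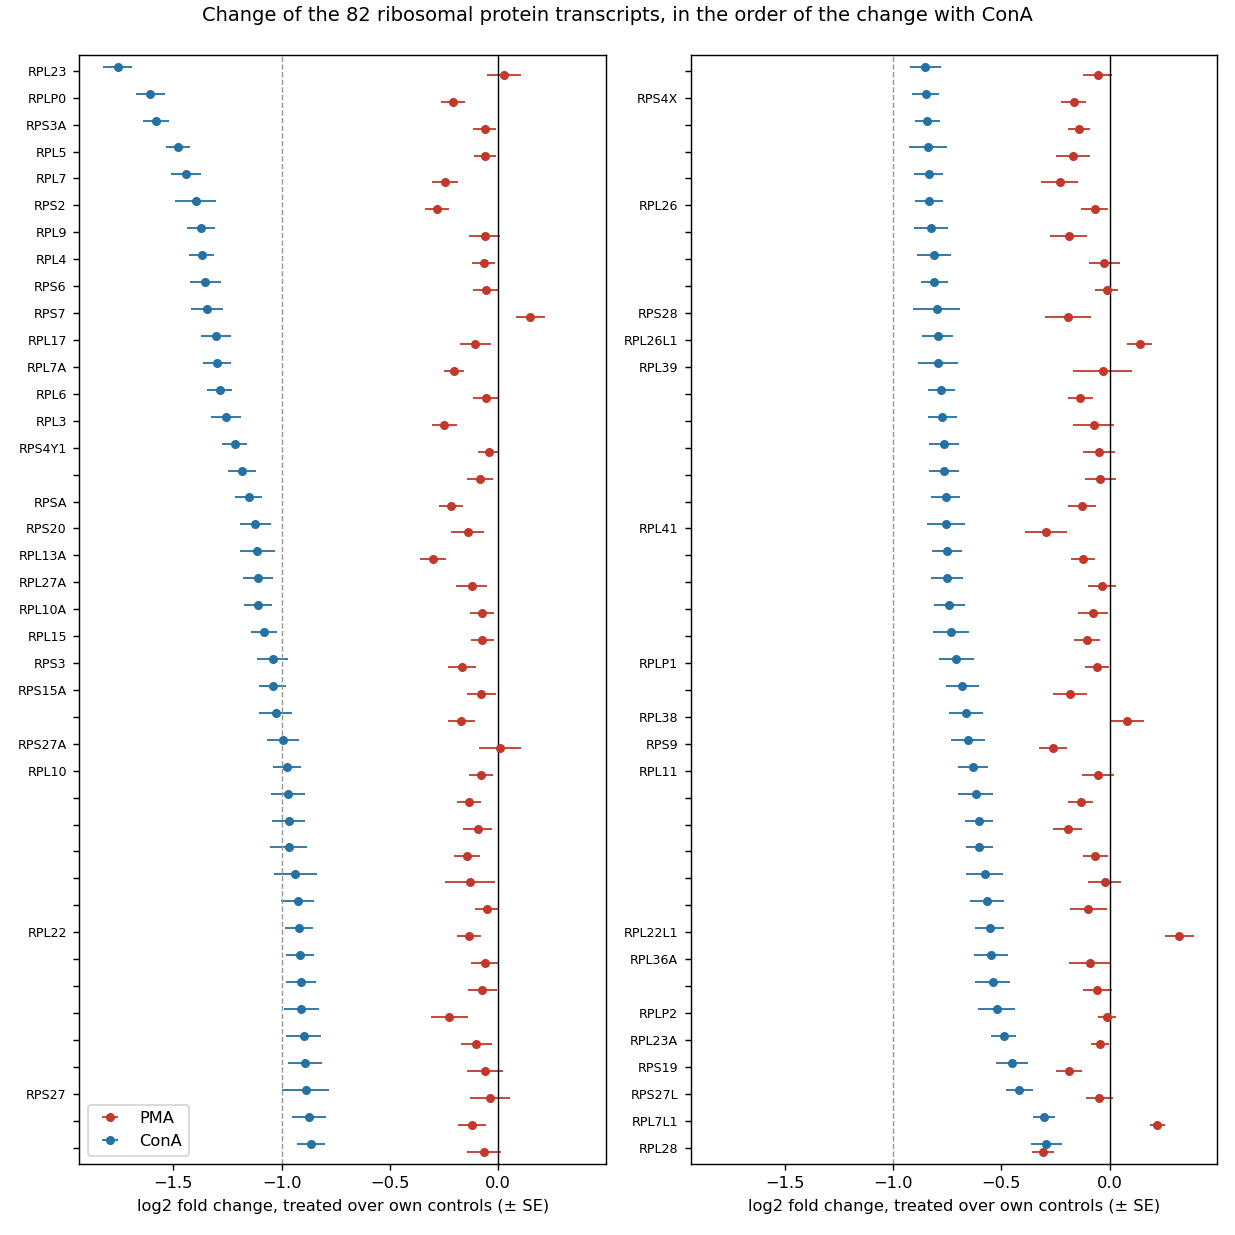
Log2 fold change with its standard error (3 against 3 libraries) of each of the 82 genes with ConA (blue) and PMA (red), in the order of the change with ConA and continued in the right panel, with names for genes that the text describes. The ConA values run from -1.76 for RPL23 to -0.29 for RPL28, with 25 genes left of the dashed line at -1, while the PMA values stay between -0.31 and 0.32.

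With PMA the same genes moved little, and no member passed the stricter call in either direction, against 4.03% of all genes tested higher and 4.61% lower. At an adjusted p of 0.05, 19 members were lower, 10 of the large and 9 of the small subunit, against 30.5% of all genes tested. Another 2 members were higher, against 32.8% of all genes, and 61 did not pass. The share of members lower (23.2%) was therefore under that of all genes. The members' median was -0.08, with 75 of 82 below 0, and the median of all 15153 genes was 0.00. Of the members, 10 (12.2%) lay wholly under their controls and 3 wholly above, where 33.1% and 34.8% of all genes did.

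The number of lowered members depended on single libraries, on the scaling and on the variance model. Without the third PMA control 72 members were lower, but without the first or the second control, or the first or the third PMA library, only 9 were. Without a variance trend it was also 9. When each library was divided by its own total, 62 were lower, but the median of all genes then also shifted by -0.12, and the members stayed at -0.08 relative to it. Quantile normalization gave 63 lower and 0 higher. Here the median of all genes was -0.01 and that of the members -0.21, so the members lay at -0.20 relative to all genes. Their small offset with PMA thus also depended on the scaling.

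The 5 largest falls with PMA were those of RPL28, RPL13A, RPL41, RPS2 and RPS9. RPL28 went from 53646, 51072 and 49740 to 39998, 40289 and 44516 normalized counts (-0.31 ± 0.05), which is 80.8% of the control mean. This was the largest fall of the family with PMA and the smallest with ConA, and its size was nearly the same in both. RPL13A went from 77657, 78544 and 66859 to 60071, 61290 and 59342 (-0.30 ± 0.06), with no overlap. RPS2 (-0.28 ± 0.05) and RPS9 (-0.26 ± 0.06) also lay wholly under their controls, whereas RPL41 (-0.29 ± 0.10) overlapped.

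Both members that rose with PMA are paralogs. RPL22L1, a copy of RPL22, was counted 5715, 5968 and 4887 times in the controls and 6844, 7161 and 6640 times with PMA (0.32 ± 0.07). RPL7L1, related to RPL7, went from 9482, 9271 and 9414 to 10765, 11200 and 10843 (0.22 ± 0.04). In both genes the lowest PMA library was above the highest control. RPL26L1 (0.14 ± 0.06) was also wholly above its controls and RPS7 (0.15 ± 0.07) was not, but neither passed. Of the 5 highest values with PMA, the fifth was that of RPL38 (0.08 ± 0.08), whose groups overlapped.

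The changes with the treatments were then set against each other in a fit of all 12 libraries, as the PMA change less the ConA change. By this measure 81 of 82 members differed at an adjusted p of 0.05, all with the higher value for PMA and none with the lower. Over the 15030 genes tested, 30.4% had the higher value for PMA and 30.7% the lower. At the stricter call 19 members were higher and 0 lower, against 3.67% and 6.89% of all genes. The exception was RPL28, with a difference of -0.02 ± 0.09. The median difference was 0.79 over the members and -0.01 over all genes. The largest were those of RPL23 (1.78 ± 0.11), RPS3A (1.52 ± 0.08) and RPS7 (1.49 ± 0.11), and in all 3 the PMA libraries overlapped with their controls. Each treatment was run with its own controls in its own experiment, so treatment and experiment cannot be told apart. The ConA change, known when the family was chosen, is part of each difference.

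Large and small subunit genes moved by similar amounts. Large subunit genes took 4.68% ± 0.191 of all counts in the ConA controls and 2.54% ± 0.225 with ConA, and small subunit genes 3.26% ± 0.148 and 1.79% ± 0.159 (SD, n = 3 each). The ratio of large to small was 1.43 ± 0.008 in the controls and 1.42 ± 0.010 with ConA, and the groups overlapped. With PMA it was 1.49 ± 0.002 against 1.47 ± 0.010 in the controls, with no overlap. The medians of the fold changes were -0.84 for large and -0.91 for small subunit genes with ConA, and -0.07 and -0.10 with PMA.

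Transcripts of some proteins that work side by side had unlike fold changes with ConA. RPLP0 and RPL5, from which the pairs start, are among the 5 largest falls of the family, and other neighbours were not compared. RPLP1 and RPLP2 form the flexible part of the stalk on RPLP0. RPLP1 changed by -0.71 ± 0.08 and RPLP2 by -0.52 ± 0.08 with ConA, both less than RPLP0. The ratio of RPLP0 to RPLP1 counts was 1.09, 1.25 and 1.16 in the ConA controls and 0.588, 0.603 and 0.683 with ConA, and that of RPLP0 to RPLP2 had a mean of 3.03 in the controls and 1.43 with ConA. With PMA the ratio to RPLP1 was lower by less, at 0.933 ± 0.002 in the controls and 0.841 ± 0.019 with PMA (SD, n = 3), without overlap.

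RPL5 and RPL11 enter the ribosome together with the 5S rRNA and together hold MDM2 when assembly is disturbed. RPL11 went from 44542, 47321 and 44701 to 32489, 29721 and 26337 with ConA (-0.63 ± 0.07), a much smaller change than that of RPL5. The ratio of RPL5 to RPL11 was 1.07, 1.08 and 1.03 in the controls and 0.551, 0.570 and 0.647 with ConA. With PMA it was 1.08 ± 0.021, inside the range of its controls (1.09 ± 0.070). RPS19 and RPS27L were the least lowered of the small subunit symbols.

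Paralogs were compared with their namesakes by the ratio of their counts within a library. The ratio of RPL7L1 to RPL7 was 0.280 ± 0.015 in the ConA controls and 0.618 ± 0.056 with ConA, and 0.267 ± 0.025 and 0.368 ± 0.003 in the PMA experiment. RPL22L1 to RPL22 moved from 0.454 ± 0.013 to 0.586 ± 0.012 with ConA and from 0.355 ± 0.013 to 0.487 ± 0.007 with PMA. These ratios were thus higher in every treated library than in every control of both experiments, although both copies had fallen with ConA, by 0.55 for RPL22L1 and by 0.92 for RPL22 on the log2 scale.

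RPS27L, a copy of RPS27 that p53 can induce, stood to RPS27 at 1.56 ± 0.112 in the ConA controls and 2.17 ± 0.305 with ConA, and overlapped with its controls with PMA (1.55 ± 0.044 against 1.56 ± 0.118). RPL26L1 to RPL26 moved from 0.0353 ± 0.001 to 0.0407 ± 0.001 with PMA and overlapped with ConA. RPS4Y1 changed with ConA by -1.22 ± 0.06 and its X-linked homologue RPS4X by -0.85 ± 0.06, the only one of the 5 paralogs that fell more than its namesake, and with PMA they changed by -0.04 ± 0.05 and -0.17 ± 0.06. RPL39L was listed for the PMA experiment only, at 5.53 to 20.4 normalized counts, while RPL39 changed by -0.79 with ConA and -0.03 with PMA. RPL3L and RPL10L, the copies of RPL3 and RPL10, were listed in neither table, and RPL36A changed by -0.55 with ConA and -0.09 with PMA.

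The ratios of 7 pairs in both experiments gave 14 comparisons. In an exact two-sided permutation test of 3 against 3 libraries the smallest p possible is 0.1, reached by 11 of them, or 0.127 after Benjamini-Hochberg adjustment over the 14. None can therefore pass 0.05. The comparisons that overlapped were RPL26L1 with ConA (exact permutation p = 0.2) and, with PMA, RPS27L and the pair of RPL5 and RPL11 (exact permutation p = 1.0 each). The pair of RPS4Y1 and RPS4X was not among the 7 and was not tested. RPS4Y1 took 21.68% to 23.85% of the counts of both copies in the ConA controls and less, 18.0% to 18.59%, with ConA. In the PMA experiment it took 19.42% to 20.13% in the controls and more, 20.88% to 21.53%, with PMA.

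**Figure D4:**
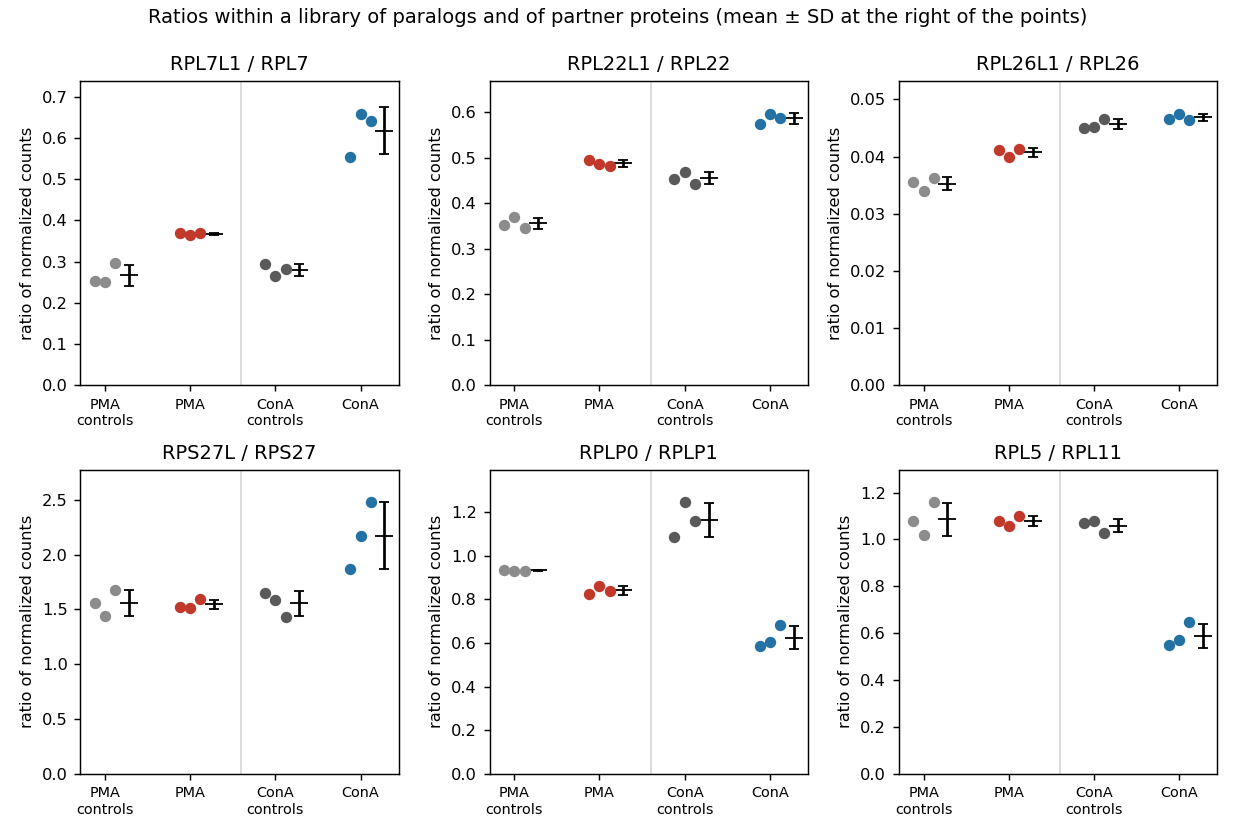
Ratio of normalized counts of 2 genes within a library, with 1 point per library and the mean ± SD (n = 3) beside the points, for 4 paralogs over their namesakes and for RPLP0 over RPLP1 and RPL5 over RPL11. RPL7L1 over RPL7 goes from 0.280 to 0.618 with ConA and RPL5 over RPL11 from 1.06 to 0.589, while the latter stays within its controls with PMA.

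Features of the transcripts were set beside the fold changes of the members. Genes with the pyrimidine tract at the annotated start had a median log2 fold change with ConA of -0.83 and those without it -0.85, and with PMA -0.09 and -0.07. The length of a gene is that of its longest annotated principal transcript, which need not be the form counted. For RPL37 it is 7686 nt. Values with length or per kb therefore describe the annotation and may not hold for the transcripts in these cells. With ConA the 41 genes with shorter annotated transcripts (344 to 1017 nt) had a median of -0.79. The 41 with longer ones (1041 to 7686 nt) had a median of -0.93. The Spearman correlation with length over the 82 genes was -0.189 with ConA, of the opposite sign to that over all 13291 genes with a length (0.184), and 0.029 with PMA. With the control level per kb it was -0.103 with ConA and -0.299 with PMA, where the control libraries enter both measures. Genes of the same libraries are not independent, and these values are a description.

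Ribosomal proteins whose symbols fall outside the rule were lower with ConA too at an adjusted p of 0.05: RACK1, a scaffold protein on the small subunit, at -0.997, FAU, made as a fusion with a ubiquitin-like protein, at -0.72, and RPL36AL at -0.22. With PMA these 3 did not pass. A chosen list of 24 other transcripts known as 5′ TOP was read as well, without a check of their starts here. With ConA 24 of 24 were lower, against 32.5% of all genes (median -0.84), led by the translation factors EIF4B (-1.90), EIF3L (-1.69) and EEF1G (-1.49). With PMA 7 of 24 were lower, close to the 30.5% of all genes, and 0 higher (median -0.08). Among the lower ones were SNHG8 (-0.47), PABPC1 (-0.30) and EIF4B (-0.29).

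Genes for rRNA synthesis and ribosome assembly moved in both directions. With PMA 28 of 42 were higher and 5 lower (median 0.17), against 32.8% and 30.5% of all genes, with TAF1A, a subunit of the RNA polymerase I factor SL1, at 0.77, NOP10 at 0.73 and RRP12 at 0.52. With ConA 10 were higher and 16 lower (median -0.01), where 32.8% and 32.5% of all genes were, among the latter the methyltransferase FBL (-0.90), MYC (-0.79) and NHP2 (-0.73). Mitochondrial ribosomal proteins were lower with ConA in 50 of 78 and higher in 5, against the same shares of all genes, with a median of -0.28 beside -0.86 for the cytoplasmic ones. MRPL24 (-1.17) was the only one past the stricter call. With PMA 16 were higher and 11 lower, under the shares of all genes in both directions.

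Of 18 genes of the mTOR pathway and of TOP mRNA binding, 8 were higher and 6 lower with ConA, and 7 higher and 4 lower with PMA. Over all genes tested 32.8% were higher and 32.5% lower with ConA, and 32.8% higher and 30.5% lower with PMA. The 6 lower with ConA and the 7 higher with PMA are near these shares and say nothing particular about the list. The 8 higher with ConA lie above their share and the 4 lower with PMA under it, which was not tested. DEPTOR, an inhibitor of mTOR, fell in both (-1.48 with ConA, -1.83 with PMA). RICTOR, of the second mTOR complex, rose by 1.45 with ConA, and AKT1S1 fell by 0.98. MTOR itself (0.51) and the cap-binding protein EIF4E (0.49) rose with PMA.

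Markers of other cell types were read beside these results. T and NK cell markers were listed for 9 of 10 genes in the PMA table, with TRAC not listed. They summed to 1107 to 1279 normalized counts in the controls and 1599 to 2098 with PMA. Of these 9 genes, 6 were higher and 0 lower with PMA, where 32.8% and 30.5% of all genes were. In the ConA table only CD3D was listed, at 21.9 to 31.0 in the controls and 21.6 to 26.1 with ConA. Erythroid markers were listed in neither (0 of 6), B cell markers for 1 of 6 at no more than 10.8, and of the monocyte markers CD14, FCN1 and S100A8 were not listed, the other 3 summing to 301.5 to 472.8 over all libraries. Of the epithelial markers 3 of 5 were listed in the PMA table, summing to 27630 to 29520 in the controls and 15620 to 16270 with PMA, and 5 of 5 in the ConA table, at 39190 to 40760 and 34580 to 37460. Mesenchymal markers summed to 742300 to 817600 in the ConA controls and 539500 to 576300 with ConA, and to 631400 to 648300 and 685500 to 709200 in the PMA experiment. Single mesenchymal markers did not all follow these sums. With PMA 4 of 10 were higher and 5 lower, where 32.8% and 30.5% of all genes were. With ConA 9 were lower and 1, NT5E, was higher (2.98), where 32.5% and 32.8% of all genes were. The part of these shifts in the ribosomal protein values was not tested.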

How the data were processed

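Polyadenylated RNA of 12 libraries (4 groups of 3) was analysed. The authors deposited 1 table per experiment of signal values, normalized counts per gene symbol, with each library divided by a factor of its own. The submitters' notes name Partek, STAR, Bowtie2 and DESeq2 and the builds hg19 and mm10, with no role or order. Whole reads were not recoverable (80.2% to 82.6% of values from 5 to 60 came out whole within 0.02), so read-count models were not used. Depth was estimated from these factors.

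Each treatment was compared with the controls of its own table by limma 3.58.1 (R 4.3.3) on log2(value + 1), with a variance trend and genes with a mean of at least 10, two-sided, with Benjamini-Hochberg adjustment over all genes tested. This scale understates changes of low genes. The difference between treatments was a contrast over 4 group means and 12 libraries. Ratios were tested by exact permutation. Members and lists were chosen with earlier results of these data known. Genes named are paralog pairs, members past the stricter call, the 5 highest and lowest per treatment, the 3 largest differences between treatments, 8 genes of known role, and at most 3 genes per other list. RPS27A was named as a neighbour of the fold threshold, and RACK1, FAU and RPL36AL outside the symbol rule. Some genes that this rule names are not reported here. Transcript lengths are those of the longest principal transcript in GENCODE on GRCh38. Start sites are from RefSeq on GRCh38.p14, and both were matched by symbol. Fits were tested on simulated data. Python 3.11.15 with pandas 2.3.3, scipy 1.17.1 and matplotlib 3.10.9 was used.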

Additional observations from a re-analysis of the deposited data

Results flagged for a closer look

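Between PMA and ConA, the change against controls differed in 81 of the 82 members in the limma test of the difference over 12 libraries, at an adjusted p of 0.05, always with the higher value for PMA. Over all 15030 genes tested 30.4% had the higher value for PMA and 30.7% the lower, and the family was chosen with its ConA change known. The largest differences were 1.78 for RPL23, 1.52 for RPS3A and 1.49 for RPS7 (log2, PMA minus ConA). The experiments had separate controls, so treatment and experiment cannot be told apart.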

How the results depend on the processing

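The count of members lower with ConA at the adjusted p was 82 under every alternative tried except quantile normalization (81, without RPL28). The count past the stricter ConA call (25) was 16 without the variance trend, 77 at a log2 fold threshold of 0.5, and 23 to 34 with a library left out. It was 19 after quantile normalization, 22 after division by library totals and 30 with the library medians set equal. With PMA the count of members lower (19) was 62 after division by library totals, 63 after quantile normalization, 9 without the variance trend, 9 at an adjusted p of 0.01 and 9 to 72 with a library left out, and the count higher (2) was 0 after quantile normalization and 2 to 4 with a library left out. The value of 72 came without PMA control 3, and those of 9 without PMA control 1 or 2 or PMA library 1 or 3. The members' median with PMA was -0.20 after division by totals and -0.21 after quantile normalization, that of large subunit genes -0.19 and -0.21, and that of small subunit genes -0.22 after division by totals. With a library left out the members' median was -0.17 to -0.03 with PMA and -0.93 to -0.81 with ConA. The count of members with a difference between the treatments was 74 to 81 over all alternatives. The cause was not tested. Over the named genes 1288 values stayed on their side of the threshold, 69 newly passed, 38 no longer passed and 0 turned their direction.

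The PMA replicate numbers are shared with the controls, but same-numbered libraries did not deviate together (r = -0.0636, 0.0964 and 0.0964 over 15153 genes). With the replicate number as a block 27 members were lower and 3 higher with PMA. The ConA libraries and their controls share no numbers, so for ConA no paired analysis was possible.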
